A study of Mus musculus with 8 samples.

Results

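Leukocytes hold on to the vessel wall through integrins and read antibody-coated targets through Fc receptors, and the genes described here encode 9 of these surface proteins or their partner chains. They are Itgb2, Itgal, Itgam and Itgax (the chains of the β2 integrins), Cd44 (the hyaluronan receptor), Fcgr1, Fcgr3 and Fcgr4 (activating receptors for IgG) and Fcer1g (their signalling chain). They were taken by symbol from a table of 54532 genes, and each of the 9 symbols matched a single gene. Livers were compared between 4 mice labelled METTL3-HKD and 4 labelled METTL3-Flox, and all 8 mice had undergone 1 h of ischemia and 6 h of reperfusion. METTL3-HKD mice, written METTL3 flox/-; Alb-iCre by the study, are heterozygous for the floxed allele and carry a recombinase driven by the albumin promoter, which is active in hepatocytes and not in leukocytes. METTL3-Flox mice, the controls, are METTL3 flox/flox, with no Cre in the notation. Both genotypes came from the same crosses on a C57BL/6 background, ischemia was partial and warm, and no liver without ischemia is among the 8. The labels give no age.

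The β2 integrins are pairs of chains: CD18, encoded by Itgb2, joins CD11a (Itgal) to form LFA-1, CD11b (Itgam) to form Mac-1, or CD11c (Itgax). LFA-1 is found on most leukocytes, Mac-1 mainly on neutrophils, monocytes and macrophages, and CD11c on dendritic cells and some macrophages and monocytes. Both LFA-1 and Mac-1 bind ICAM-1 on endothelium, and Mac-1 also binds fibrinogen and the complement fragment iC3b. In the liver sinusoids, neutrophils also adhere through CD44 to hyaluronan. The activating IgG receptors need the γ chain encoded by Fcer1g, which carries the ITAM motif that recruits the kinase SYK, whereas the receptor encoded by Fcgr2b is inhibitory.

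Depth was similar in both groups, with 15961479 to 18434488 reads on genes in METTL3-HKD livers and 15861245 to 17262991 in METTL3-Flox livers. Values are FPKM, that is fragments per kilobase of gene length on a library-size scale, so that levels of different genes can be compared. The library size implied by the FPKM was 18063236 to 20114825 in METTL3-HKD livers and 14210943 to 16158035 in METTL3-Flox livers, without overlap. The deposited scaling thus differed by group, although the reads on genes were similar. Mettl3 had 1.33 ± 0.181 FPKM (SD, n = 4) in METTL3-HKD livers and 1.50 ± 0.282 FPKM (SD, n = 4) in METTL3-Flox livers, with overlapping groups (limma adjusted p = 0.556), so its level over the whole gene did not check the genotype labels. The direction of that difference turned when libraries were scaled to the reads on genes. Hepatocyte marker genes summed to between 21000 and 31500 FPKM in every liver, and the tissue label is liver. In bulk tissue, more cells of a type and more RNA per cell cannot be told apart.

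All p-values are two-sided. The log2 fold change is METTL3-HKD minus METTL3-Flox on the log2(FPKM + 0.1) scale, tested with limma and adjusted by the Benjamini-Hochberg method over the 16645 genes whose mean reached 0.1 FPKM. A gene is called higher or lower at an adjusted p under 0.05, and upregulated where the log2 fold change was also at least 1. For single genes, FPKM were also compared by exact permutation over the livers, where 4 against 4 cannot give a p below 0.0286.

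All 9 genes passed the minimum level and were tested. Itgam, Itgax and Cd44 were upregulated in METTL3-HKD livers, and none of the 9 was lower. These are 3 of 9 genes, against a background of 9.05% of all tested genes called higher, 4.7% upregulated and 6.63% lower. The 9 genes were chosen with earlier results of these data known, so comparisons with the background are descriptions only. The same 3 genes were also those in which the groups were fully apart, with the lowest METTL3-HKD liver above the highest METTL3-Flox liver, a pattern held by 12.7% of all tested genes. The log2 fold change was positive in 7 of the 9, with a median of 0.62 against 0.00 over all tested genes. With 1 liver left out, 1 to 4 of the 9 were called higher, Cd44 alone without METTL3-HKD liver 4 or METTL3-Flox liver 3, and these 3 with Itgb2 without METTL3-HKD liver 3.

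**Figure D1:**
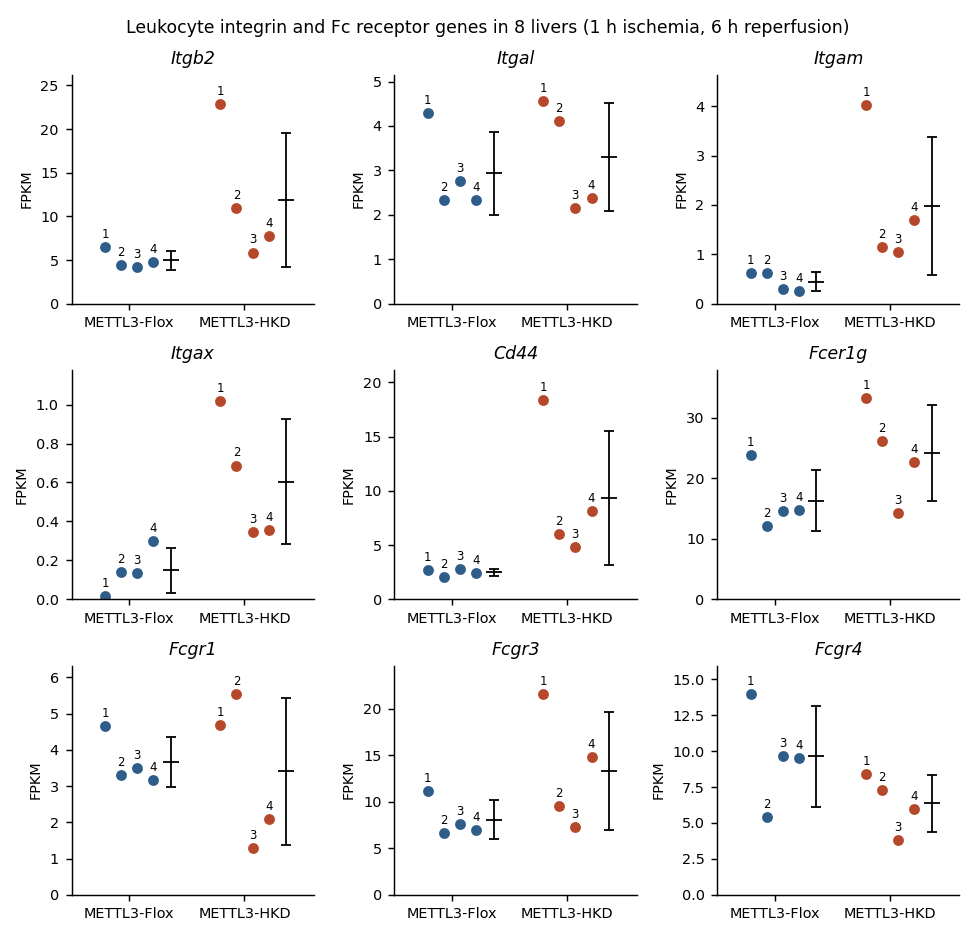
FPKM of the 9 genes in each liver, with METTL3-Flox livers 1 to 4 in blue, METTL3-HKD livers 1 to 4 in red, and the mean ± SD of each group as a bar. The groups do not overlap for Itgam, Itgax and Cd44, and METTL3-HKD liver 1 is the highest of the 8 livers in 7 of the 9 panels.

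Itgb2, the chain that all β2 integrins share, lies on the plus strand of chromosome 10 (chr10:77530252-77565708, GRCm38). It was at 22.9, 10.9, 5.86 and 7.72 FPKM in livers 1 to 4 of METTL3-HKD mice and at 6.52, 4.38, 4.16 and 4.74 FPKM in livers 1 to 4 of METTL3-Flox mice. Liver 1 was the highest in each group, and METTL3-HKD liver 3 lay below METTL3-Flox liver 1, so the groups overlapped. The means were 11.9 ± 7.67 and 4.95 ± 1.08 FPKM (SD, n = 4 each), and the log2 fold change of 1.07 did not pass (SE 0.370, limma adjusted p = 0.0814; exact permutation p = 0.0571). Without METTL3-HKD liver 3 it passed, with a log2 fold change of 1.34 (limma adjusted p = 0.0337).

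The 3 α chain genes measured here sit on chromosome 7 on the plus strand and near each other. Itgal (chr7:127296260-127335138), the α chain of LFA-1, was at 4.56, 4.12, 2.16 and 2.38 FPKM in livers 1 to 4 of METTL3-HKD mice and at 4.30, 2.34, 2.75 and 2.34 FPKM in livers 1 to 4 of METTL3-Flox mice. In both groups the values spread over a similar range, and the groups overlapped almost entirely. Its log2 fold change was 0.14 (95% confidence interval −0.50 to 0.78, limma adjusted p = 0.773), so an increase of up to 0.78 or a decrease of up to 0.50 on the log2 scale lies within the interval.

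Itgam (chr7:128062640-128118491), the α chain of Mac-1, was upregulated. It was at 4.03, 1.15, 1.05 and 1.70 FPKM in livers 1 to 4 of METTL3-HKD mice and at 0.616, 0.616, 0.301 and 0.260 FPKM in livers 1 to 4 of METTL3-Flox mice. The lowest METTL3-HKD liver lay above the highest METTL3-Flox liver, and METTL3-HKD liver 1 stood above the other METTL3-HKD livers. The means were 1.98 ± 1.39 and 0.448 ± 0.195 FPKM (SD, n = 4 each), a 4.42-fold ratio, and the log2 fold change was 1.79 (SE 0.424, limma adjusted p = 0.0255; exact permutation p = 0.0286). Behind these values stand 21 to 50 reads in each METTL3-Flox liver and 95 to 407 in each METTL3-HKD liver. The call was lost without METTL3-HKD liver 4 (limma adjusted p = 0.0533), without METTL3-Flox liver 3 (0.0715) and without METTL3-Flox liver 4 (0.0638). Of the 5024 exonic bases of Itgam, 3450 are also exonic in Gm49368 on the same strand, which had a mean of 0.006 FPKM, so the level of Itgam is uncertain.

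Itgax (chr7:128129547-128150657), encoding CD11c, was also upregulated, at the lowest level of the 9 genes. It was at 1.02, 0.687, 0.346 and 0.358 FPKM in livers 1 to 4 of METTL3-HKD mice and at 0.0147, 0.142, 0.137 and 0.297 FPKM in livers 1 to 4 of METTL3-Flox mice. METTL3-HKD livers 3 and 4 lay only slightly above METTL3-Flox liver 4, and the value of METTL3-Flox liver 1 is a single read. The log2 fold change was 1.53 (SE 0.442, limma adjusted p = 0.0475; exact permutation p = 0.0286), with 1 to 23 reads in each METTL3-Flox liver and 30 to 99 in each METTL3-HKD liver. This call sat close to the threshold: of the omissions of 1 liver, it held without METTL3-HKD liver 3 (limma adjusted p = 0.0440) and without METTL3-Flox liver 4 (0.0458), and the adjusted p was 0.0598 to 0.124 without any of the other 6 livers. Of the 50-base stretches in its first-numbered coding transcript, 9.61% also occur in Itgad, the adjacent β2 integrin α chain gene, which was below the minimum level.

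Cd44, the receptor for hyaluronan, lies on the minus strand of chromosome 2 (chr2:102811141-102901665). It was at 18.4, 6.05, 4.82 and 8.15 FPKM in livers 1 to 4 of METTL3-HKD mice and at 2.66, 2.01, 2.79 and 2.45 FPKM in livers 1 to 4 of METTL3-Flox mice. The METTL3-Flox livers were nearly level, and every METTL3-HKD liver was higher, liver 1 most of all. The means were 9.36 ± 6.20 and 2.48 ± 0.341 FPKM (SD, n = 4 each), a 3.78-fold ratio, with a log2 fold change of 1.69 (SE 0.359, limma adjusted p = 0.0179; exact permutation p = 0.0286). It was the one gene of the 9 that stayed called without each of the 8 livers in turn, at limma adjusted p-values from 0.00991 to 0.0488. The FPKM cover all annotated exons, so the standard and variant isoforms of CD44 are not separated.

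The stretches just upstream of the 3 upregulated genes, and of Fcgr4 as a member with a negative fold change, are shown so that called and uncalled genes can be set side by side. Each holds the 250 bases before the RefSeq start of the gene (GRCm38.p6), read 5′ to 3′ on the gene's strand. The windows are chr7:128062390-128062639 (plus) for Itgam, chr7:128129300-128129549 (plus) for Itgax, chr2:102901666-102901915 (minus) for Cd44 and chr1:171018676-171018925 (plus) for Fcgr4. Capitals mark GAGGAA or, where it is on the other strand, its reverse complement.
Itgam: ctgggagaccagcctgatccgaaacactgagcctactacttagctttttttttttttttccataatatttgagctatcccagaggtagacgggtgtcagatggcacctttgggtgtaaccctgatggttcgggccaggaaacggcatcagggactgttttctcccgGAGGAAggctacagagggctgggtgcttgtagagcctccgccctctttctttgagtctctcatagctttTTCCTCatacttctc
Itgax: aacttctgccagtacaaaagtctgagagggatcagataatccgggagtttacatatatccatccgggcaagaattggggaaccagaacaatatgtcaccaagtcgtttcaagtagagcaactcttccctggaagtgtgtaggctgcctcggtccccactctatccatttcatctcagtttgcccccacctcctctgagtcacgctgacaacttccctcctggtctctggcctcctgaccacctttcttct
Cd44: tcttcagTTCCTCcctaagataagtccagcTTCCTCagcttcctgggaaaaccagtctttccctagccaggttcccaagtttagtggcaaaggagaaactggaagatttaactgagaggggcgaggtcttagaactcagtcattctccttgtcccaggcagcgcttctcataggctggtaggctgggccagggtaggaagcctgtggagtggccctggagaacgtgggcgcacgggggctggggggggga
Fcgr4: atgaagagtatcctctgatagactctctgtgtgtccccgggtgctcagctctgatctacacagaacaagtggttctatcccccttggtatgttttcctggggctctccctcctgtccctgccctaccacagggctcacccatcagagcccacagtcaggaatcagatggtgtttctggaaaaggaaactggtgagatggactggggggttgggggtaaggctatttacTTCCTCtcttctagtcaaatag
The letters GAGGAA are the core bound by PU.1, a transcription factor of myeloid cells. They occurred in 23.3% of the 32851 RefSeq windows of this length. Windows were found for 7 of the 9 genes, Itgal and Itgb2 being those without one, and Fcgr3 has 2 overlapping windows. GAGGAA was in 6 of the 8 windows, those of Itgam, Cd44, Fcgr1, Fcgr4 and Fcgr3, and was absent from those of Itgax and Fcer1g. The matches lay 84 to 79 and 15 to 10 bases before the start in Itgam, 243 to 238 and 220 to 215 bases before it in Cd44, and 22 to 17 bases before it in Fcgr4. The other motifs were searched on both strands, and none of their matches overlapped that core. The AP-1 motif TGANTCA is in 6.75% of all windows and was found 56 to 50 bases before the start of Itgax. The C/EBP motif TTGCNNAA is in 9.56% of all windows and was found in Fcgr3. The STAT motif TTCNNNGAA is in 7.02% of all windows and was found in Fcgr1. The motif was thus present upstream of genes that rose and of genes that did not, and a match is a description of letters only.

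Fcer1g, the γ chain that the activating Fc receptors share, had the highest level of the 9 genes in both groups (chr1:171229572-171234365, minus strand). It was at 33.3, 26.2, 14.2 and 22.7 FPKM in livers 1 to 4 of METTL3-HKD mice and at 23.8, 12.1, 14.6 and 14.8 FPKM in livers 1 to 4 of METTL3-Flox mice. The groups overlapped, since METTL3-HKD liver 3 lay below 3 of the METTL3-Flox livers. The log2 fold change was 0.54 (95% confidence interval −0.09 to 1.17, limma adjusted p = 0.214).

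None of the 3 receptors that pair with this chain passed the test. Fcgr3 (chr1:171051174-171064935, minus strand), a low-affinity IgG receptor of most myeloid cells and NK cells, was at 21.6, 9.51, 7.27 and 14.8 FPKM in livers 1 to 4 of METTL3-HKD mice and at 11.1, 6.63, 7.58 and 6.98 FPKM in livers 1 to 4 of METTL3-Flox mice. METTL3-HKD livers 1 and 4 lay above all METTL3-Flox livers and livers 2 and 3 did not, and the log2 fold change of 0.62 did not pass (95% confidence interval −0.10 to 1.34, limma adjusted p = 0.216). Of the 50-base stretches in its transcript, 12.79% also occur in Fcgr2b, so its level could include or lose reads of that gene.

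Fcgr1 (chr3:96282909-96293969, minus strand), the high-affinity IgG receptor of monocytes and macrophages, was at 4.69, 5.54, 1.30 and 2.10 FPKM in livers 1 to 4 of METTL3-HKD mice and at 4.67, 3.30, 3.51 and 3.17 FPKM in livers 1 to 4 of METTL3-Flox mice. The METTL3-HKD livers split on either side of the controls: livers 1 and 2 lay at or above the highest METTL3-Flox liver, and livers 3 and 4 below the lowest. The log2 fold change was −0.30 (95% confidence interval −1.22 to 0.62, limma adjusted p = 0.652).

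Fcgr4 (chr1:171018920-171029761, plus strand), an IgG receptor of Kupffer cells, neutrophils and some monocytes, was at 8.43, 7.28, 3.79 and 6.00 FPKM in livers 1 to 4 of METTL3-HKD mice and at 14.0, 5.42, 9.69 and 9.50 FPKM in livers 1 to 4 of METTL3-Flox mice. Apart from METTL3-Flox liver 2, the METTL3-Flox livers lay above all METTL3-HKD livers. The means were 6.37 ± 1.99 and 9.65 ± 3.51 FPKM (SD, n = 4 each), and the log2 fold change of −0.57 did not pass (95% confidence interval −1.28 to 0.13, limma adjusted p = 0.239; exact permutation p = 0.171).

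**Figure D2:**
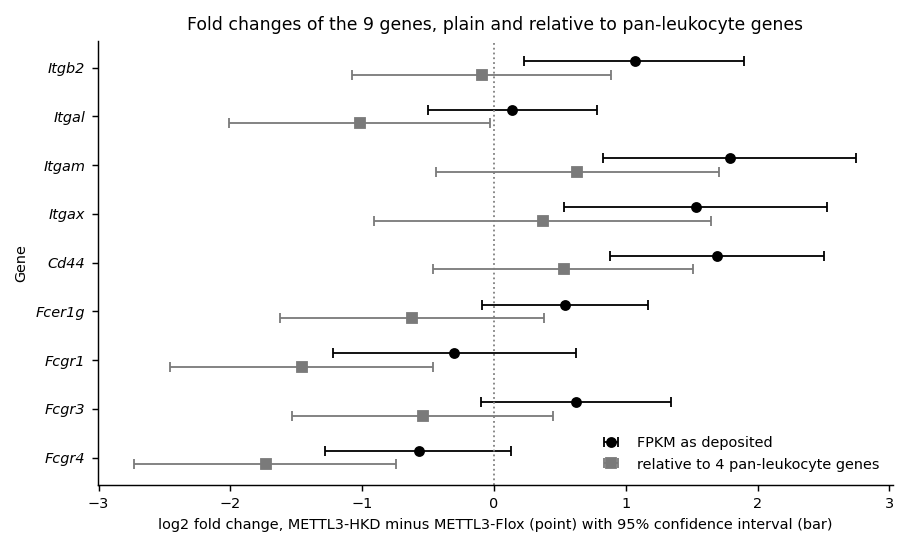
Log2 fold change (METTL3-HKD minus METTL3-Flox) of each gene with its 95% confidence interval, from the deposited FPKM (black circles) and after the mean of 4 pan-leukocyte genes was subtracted in each liver (grey squares). The black intervals of Itgb2, Itgam, Itgax and Cd44 lie above 0, and the grey intervals of Itgam, Itgax and Cd44, centred at 0.63, 0.37 and 0.53, include 0. Since the index is part of every grey value, the grey intervals reflect a spread common to all genes more than that of the single gene.

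The order of the mean levels differed between the groups, a difference that was not tested. In METTL3-Flox livers the mean FPKM ran Fcer1g, Fcgr4, Fcgr3, Itgb2, Fcgr1, Itgal, Cd44, Itgam, Itgax, from 16.3 down to 0.148 FPKM. Neighbours in this order whose ranges over the livers did not overlap were Fcgr3 and Itgb2, and Cd44 and Itgam. The ranges of the other neighbours overlapped, although within each of the 4 livers Fcer1g was above Fcgr4, Itgb2 above Fcgr1 and Fcgr1 above Itgal. In METTL3-HKD livers the order ran Fcer1g, Fcgr3, Itgb2, Cd44, Fcgr4, Fcgr1, Itgal, Itgam, Itgax, from 24.1 down to 0.604 FPKM, and Itgam and Itgax were the one neighbouring pair whose ranges did not overlap. Within METTL3-HKD livers, Fcgr3 was above Itgb2 in 2 of 4, Fcgr1 above Itgal in 2 of 4, and Cd44 above Fcgr4 in 3 of 4. Cd44 stood below Fcgr4, Fcgr1 and Itgal in the METTL3-Flox means and above all of them in the METTL3-HKD means. The level of Itgam is uncertain because of the bases shared with Gm49368. Its place in both orders, and which genes are its neighbours, are therefore uncertain too.

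The make-up of the β2 integrin α chains was compared as ratios within each liver, in which any factor that scales all leukocyte transcripts alike cancels out. The ratio of Itgal to Itgb2 was 0.199, 0.378, 0.368 and 0.308 in METTL3-HKD livers 1 to 4 and 0.658, 0.533, 0.662 and 0.493 in METTL3-Flox livers 1 to 4. Every METTL3-HKD liver lay below every METTL3-Flox liver, and the mean log2 ratio differed by −0.94 (exact permutation p = 0.0286). The ratio of Itgam to Itgb2 was 0.176, 0.106, 0.179 and 0.221 in METTL3-HKD livers and 0.0944, 0.141, 0.0724 and 0.0548 in METTL3-Flox livers, which overlapped (log2 difference 0.95, exact permutation p = 0.0571). Itgax to Itgb2 differed by 1.42 on the log2 scale with overlapping groups (exact permutation p = 0.114), a difference that leans on the single read of METTL3-Flox liver 1. The sum of the 3 α chains per Itgb2 was 0.420 to 0.606 in METTL3-HKD livers and 0.610 to 0.767 in METTL3-Flox livers. If reads shared with Gm49368 were not counted, Itgam would be understated in both of its ratios, and the gap between the groups in the summed ratio cannot be relied on.

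As shares of the summed FPKM of the 3 α chains, Itgal made up 57.7 ± 9.35% in METTL3-HKD livers and 82.4 ± 5.42% in METTL3-Flox livers (SD, n = 4 each). Itgam made up 32.3 ± 10.1% and 12.7 ± 5.05%, and Itgax 8.08 to 11.5% and 0.297 to 10.3%. The share of Itgal was smaller in every METTL3-HKD liver than in any METTL3-Flox liver, and the shares of Itgam and of Itgax overlapped between the groups. These shares include Itgam, so its uncertain level carries over to all of them and leaves the order of Itgal and Itgam in METTL3-HKD livers uncertain.

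Among the Fc receptors, the ratio of Fcgr4 to Fcer1g was 0.253, 0.278, 0.267 and 0.265 in METTL3-HKD livers 1 to 4 and 0.590, 0.448, 0.664 and 0.642 in METTL3-Flox livers 1 to 4. The METTL3-HKD livers were nearly identical, although their FPKM of either gene differed more than 2-fold, and all lay below every METTL3-Flox liver. The mean log2 ratio was −1.91 ± 0.056 and −0.79 ± 0.258 (SD, n = 4 each), a difference of −1.12 (exact permutation p = 0.0286). The ratio of Fcgr1 to Fcer1g was 0.0919 to 0.211 in METTL3-HKD livers and 0.197 to 0.272 in METTL3-Flox livers, a log2 difference of −0.86 with overlapping groups (exact permutation p = 0.0571). For Fcgr3 to Fcer1g the log2 difference was 0.08 (exact permutation p = 0.8).

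The balance of activating to inhibitory receptors, as the sum of Fcgr1, Fcgr3 and Fcgr4 over Fcgr2b, was 2.59, 2.51, 1.35 and 1.72 in METTL3-HKD livers and 2.42, 1.31, 1.67 and 1.87 in METTL3-Flox livers. The groups overlapped (log2 difference 0.15, exact permutation p = 0.571). Fcgr2b is also known from liver sinusoidal endothelium, so this ratio is not one of leukocytes alone. Within the 3 activating receptors, Fcgr4 made up 28.4 ± 3.86% in METTL3-HKD livers and 44.3 ± 6.06% in METTL3-Flox livers, and Fcgr3 57.1 ± 9.95% and 38.1 ± 3.46% (SD, n = 4 each). The groups were apart in the share of Fcgr4 and overlapped in that of Fcgr3, with METTL3-HKD liver 2 at 42.6% and METTL3-Flox liver 2 at 43.2%. In all, 8 ratios were tested, and after adjustment over the 8 none passed: the 3 ratios at an exact permutation p of 0.0286, the smallest possible, had an adjusted p of 0.0763.

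**Figure D3:**
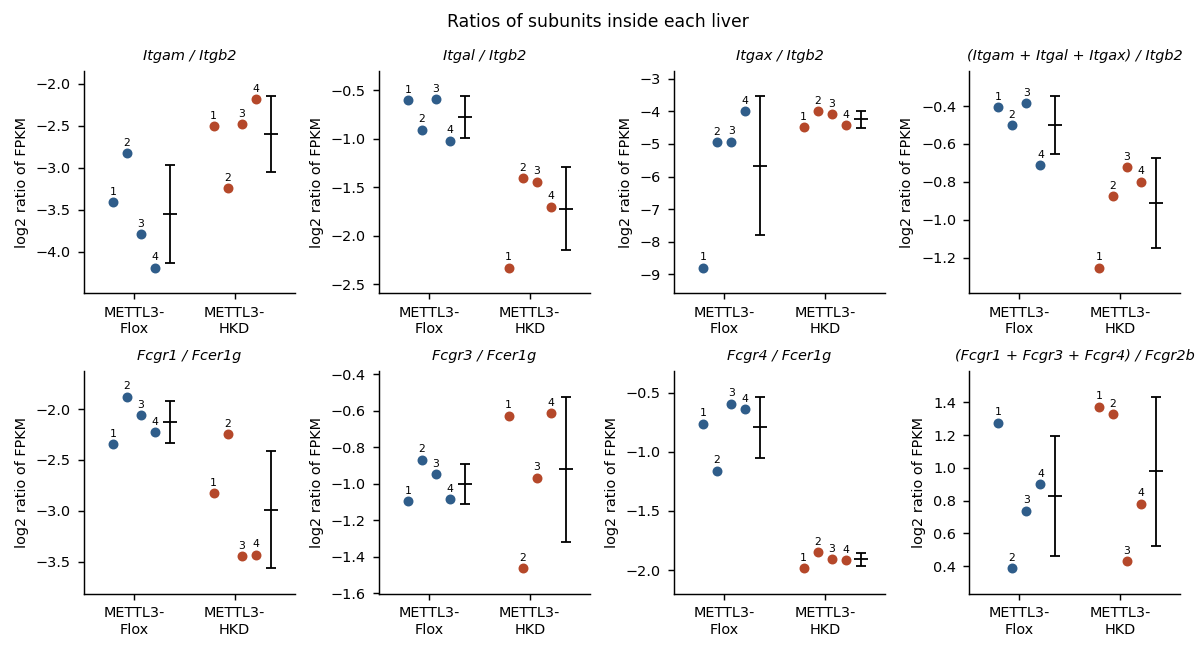
Log2 ratio of FPKM for the 8 subunit ratios in each liver, with METTL3-Flox livers in blue, METTL3-HKD livers in red, and the mean ± SD as a bar. Itgal to Itgb2, the summed α chains to Itgb2 and Fcgr4 to Fcer1g are lower in every METTL3-HKD liver than in any METTL3-Flox liver, the summed ratio resting in part on the uncertain level of Itgam, and the other 5 ratios overlap.

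Markers of the cells that carry these proteins differed between the groups as well. The 8 neutrophil markers (such as S100a8, S100a9, Csf3r and Cxcr2) were all higher, and summed to 333 to 1630 FPKM in METTL3-HKD livers and 13.1 to 44.9 FPKM in METTL3-Flox livers. Csf3r, the receptor for G-CSF, had a log2 fold change of 3.12 (limma adjusted p = 0.000511). Of the 5 monocyte markers, 3 were higher (Chil3, Ccr2 and F13a1), and the sums were 31.8 to 115 and 11.7 to 24.1 FPKM. Of the 6 Kupffer cell markers, 4 were lower (Clec4f, Timd4, Vsig4 and Cd5l), and the sums were 62.6 to 140 and 140 to 347 FPKM, with METTL3-HKD liver 2 and METTL3-Flox liver 2 at nearly the same value. All 4 of these Kupffer cell calls were lost without METTL3-HKD liver 3 or 4 or METTL3-Flox liver 3 or 4, and when libraries were scaled to the reads on genes, with the sign kept. Some of them were also lost without METTL3-HKD liver 1 or METTL3-Flox liver 1 or 2.

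The lists of T, NK and B cells and of dendritic cells showed less. Of the dendritic cell markers 0 of 5 tested were higher and 1 was lower, and of the T, NK and B cell markers 0 of 8 tested passed in either direction. Their summed levels overlapped and stayed at or under 3.29 FPKM in every liver. Of the markers of sinusoidal endothelium, stellate cells and biliary cells, 0 of 5, 1 of 5 and 3 of 4 were higher and 2, 1 and 0 were lower, and of 6 hepatocyte markers 0 passed in limma. None of the marker genes in these lists was at 0 in all 8 livers. However, 1 of 6 dendritic cell, 1 of 5 T cell, 3 of 5 NK cell and 2 of 4 B cell markers were below the minimum level. These were not tested, so the counts of 0 in those lists do not show that the cells were unchanged. Along the livers, Fcgr4 was highest in METTL3-Flox liver 1 and lowest of that group in liver 2, as was the Kupffer cell sum (347 and 140 FPKM). Among METTL3-HKD livers the Kupffer cell sum was highest in liver 2 (140 FPKM) and Fcgr4 in liver 1. The neutrophil sum was highest in METTL3-HKD liver 1 and lowest of that group in liver 3 (1630 and 333 FPKM), as were 8 of the 9 genes, Fcgr4 included. The part of these cell types in the differences of the 9 genes was not tested.

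**Figure D4:**
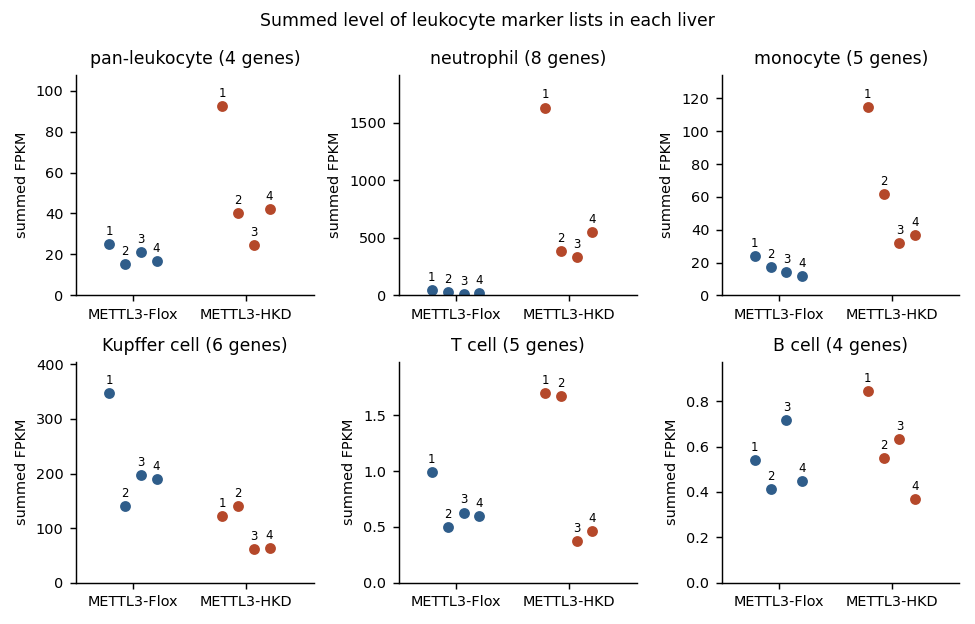
Summed FPKM of 6 leukocyte marker lists in each liver, with METTL3-Flox livers in blue and METTL3-HKD livers in red. The neutrophil and monocyte sums are higher in every METTL3-HKD liver, the Kupffer cell sums are lower or at the same level, and the other 3 lists overlap.

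The level of leukocyte transcripts in general was followed with 4 genes of nearly all leukocytes, and their mean log2(FPKM + 0.1) is called the pan-leukocyte index. Ptprc, encoding CD45, and Coro1a, an actin-binding protein of leukocytes, were upregulated, with log2 fold changes of 1.17 and 1.94 (limma adjusted p = 0.0411 and 0.0134). The call of Coro1a held without each liver in turn, and that of Ptprc was lost without any 1 liver other than METTL3-HKD liver 3. Cd53, a tetraspanin, had 1.36 (adjusted p = 0.0506), and Laptm5, a lysosomal membrane protein, had 0.18 (adjusted p = 0.739). The index was 4.01, 3.04, 2.22 and 2.82 in METTL3-HKD livers 1 to 4 and 2.20, 1.61, 1.92 and 1.72 in METTL3-Flox livers 1 to 4, a difference of 1.16 between the means without overlap (exact permutation p = 0.0286).

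When the index was subtracted from every gene and the fit was repeated, 0 of the 9 genes were higher in METTL3-HKD livers by limma, against 1.46% of all tested genes, and 0 were higher at an unadjusted p under 0.05. The index enters every gene here, and limma draws each spread toward the one common to all genes. The SE was 0.435 for Itgb2 and 0.436 for Cd44, against 0.37 and 0.359 before. These tests therefore cannot show whether a gene differed from the index beyond its own spread. The values were 0.63 for Itgam (limma adjusted p = 0.221), 0.37 for Itgax (0.553) and 0.53 for Cd44 (0.265), each with the same sign as before. Itgb2 had −0.09 (95% confidence interval −1.08 to 0.89, limma adjusted p = 0.846), an interval that carries the same common spread. By its point value, the shared β2 chain differed about as much as the index did. Relative to the index, 3 of the 9 genes were lower, Itgal at −1.02, Fcgr1 at −1.46 and Fcgr4 at −1.73. That share says nothing about them, since 58.1% of all tested genes were lower on this scale and the median of all genes was −1.16. The median of the 9 genes was −0.54.

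The other chains and partners of these receptors were followed in 8 lists that hold 111 genes in all, of which 95 were tested. Across them 21 genes were higher, 17 of these upregulated, and 1 was lower, with a median log2 fold change of 0.25 against 0.00 over all tested genes. Over all tested genes 9.05% were higher, 4.7% upregulated and 6.63% lower, the shares to set beside each count below. For lists this short, a count of 0 is near these shares and does not show that the genes were unchanged. The lists were also chosen with earlier results of these data known. The 22 calls became 8 to 27 when 1 liver was left out, fewest without METTL3-Flox liver 3 and most without METTL3-HKD liver 3. Among the other integrin chains 4 of 12 were higher: Itgav (log2 fold change 1.06, limma adjusted p = 0.0102), Itga6 (1.01, 0.0487), Itgb1 (0.49, 0.0271) and Itgb7 (1.38, 0.0292). Itgb7 pairs with Itga4 on lymphocytes that home to gut, while Itgav and Itgb1 are expressed by many cell types. Itgb5 was the one lower gene (−0.31, adjusted p = 0.0305). The log2 fold change of Itgb5 became −0.09 and the call was lost (limma adjusted p = 0.589) when libraries were scaled to the reads on genes. Of the 13 genes that switch integrins into their active state, such as Tln1 and Rap1b, 0 passed in limma, with a median of 0.05. Of the 11 tested β2 integrin ligands 0 passed, and Icam1, the endothelial ligand of LFA-1 and Mac-1, had 8.53 ± 1.40 and 6.24 ± 0.996 FPKM (SD, n = 4 each; log2 fold change 0.45, limma adjusted p = 0.0751). Icam1 did pass when libraries were scaled to the reads on genes (0.66, limma adjusted p = 0.0269). It also passed with sample weights (0.47, 0.0437) and without METTL3-HKD liver 3 (0.53, 0.0486), and in no other alternative.

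Of the 6 other Fc receptors that were tested 0 passed, with a median of −0.16. A count of 0 among 6 genes is near the 9.05% higher and 6.63% lower of all tested genes. Fcgrt, which encodes the neonatal Fc receptor and was strongly expressed, had 58.3 ± 1.30 and 66.8 ± 2.93 FPKM without overlap, but its log2 fold change of −0.20 did not pass (limma adjusted p = 0.108) and became 0.02 when libraries were scaled to the reads on genes. Pigr, the transporter of IgA into bile, had −0.13 (adjusted p = 0.627) and became 0.09 on that scaling. Fcgr2b, the inhibitory receptor, had −0.09 (limma adjusted p = 0.722), and its sign turned on that scaling as well.

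The signalling genes downstream of ITAM motifs had the highest median of the 8 lists, 0.65, and 4 of 19 were upregulated. Syk, the kinase that binds phosphorylated ITAMs, was at 3.78, 1.82, 1.19 and 2.15 FPKM in livers 1 to 4 of METTL3-HKD mice and at 0.834, 0.747, 1.04 and 1.02 FPKM in livers 1 to 4 of METTL3-Flox mice (log2 fold change 1.10, limma adjusted p = 0.0397). The SRC-family kinases differed: Src (1.16, adjusted p = 0.00986) and Fgr (1.11, 0.0207) were upregulated, whereas the other 3 of the list did not pass, at −0.19 to 0.00. The fourth upregulated gene was Blnk, an adaptor of SYK in B cells and macrophages (1.59, adjusted p = 0.0483). Of the 12 genes listed for inhibitory receptors and phosphatases, 2 were higher, the myeloid receptor Cd300lf (3.05, adjusted p = 0.0054) and the phosphatase Ptpn11 (0.34, 0.0422). The others did not pass, among them the phosphatases Ptpn6 (0.0, adjusted p = 0.99) and Inpp5d (0.45, 0.291). Against 9.05% of all tested genes called higher, 2 of 12 is no clear excess.

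Of the genes around CD44, 7 of 16 tested were higher. Tnfaip6, a hyaluronan-binding protein that transfers inter-α-inhibitor heavy chains, rose from 0.129 ± 0.156 to 5.33 ± 3.22 FPKM (SD, n = 4 each; log2 fold change 4.35, limma adjusted p = 0.00871). The others were the hyaluronan synthase Has1 (2.35, adjusted p = 0.0218), the hyaluronan-binding proteoglycan Vcan (2.29, 0.0167), the CD44 ligand Spp1, or osteopontin (1.68, 0.0136), the linkers of CD44 to actin Ezr (1.70, 0.00989) and Msn (1.05, 0.0157), and Mmp14, a protease that sheds CD44 (0.50, 0.0176). The related linker Rdx went the other way, at −0.48, and did not pass (limma adjusted p = 0.0665). The list median was 0.24, so the genes not called pulled it well below the values of the called genes. Higher genes of the phagocyte oxidase list included the cytosolic subunits Ncf1 (1.13, adjusted p = 0.0335) and Ncf4 (1.15, 0.0273), and Rac1 (0.54, 0.0233). The membrane subunits of the oxidase in that list did not pass, with log2 fold changes of either sign. Among the calls named in these lists, those of Itgav, Src, Cd300lf, Tnfaip6, Vcan, Spp1, Ezr and Msn held without each of the 8 livers in turn. The call of Mmp14 was lost without METTL3-Flox liver 3 and that of Fgr without METTL3-Flox liver 3 or 4. Those of Itga6, Itgb1, Itgb5, Itgb7, Syk, Blnk, Ptpn11, Has1, Rac1, Ncf1 and Ncf4 were lost without any 1 of 4 or more of the livers, METTL3-Flox liver 3 among them for every one.

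**Figure D5:**
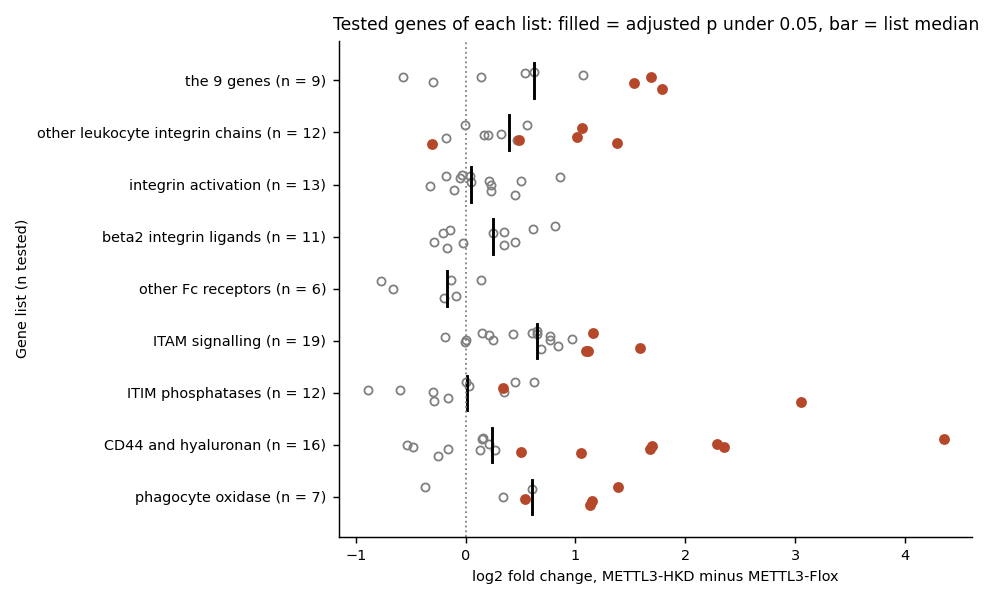
Log2 fold change (METTL3-HKD minus METTL3-Flox) of each tested gene in the 9-gene set and 8 related lists, with filled points for a limma adjusted p under 0.05 and a bar for the list median. The CD44 and hyaluronan genes hold 7 filled points, up to 4.35 for Tnfaip6, and the integrin activation, ligand and other Fc receptor lists hold none. In lists of this length, holding none is near the share called over all tested genes.

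The genes whose pattern over the 8 livers was most like that of 4 of the members were sought among 10686 other genes, by the root-mean-square difference of centred log2 values, which is 0 for an identical pattern. Nearest to Itgam were Btg2 (0.18), Hdc (0.259) and Thbd (0.268), and nearest to Itgb2 were Ptprc (0.18), Slfn2 (0.212) and Sgms1 (0.237). For Cd44 they were Csf2rb (0.125), its paralog Csf2rb2 (0.161), which could share reads with it, and Ckap4 (0.218). For Fcer1g they were Cyth4 (0.162), Med31 (0.165) and Sh3bgrl3 (0.17). The points are the same 8 libraries for every pair, and with a pseudocount of 1 FPKM only Slfn2, Csf2rb and Sh3bgrl3 stayed among the nearest 3.

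In METTL3-HKD mice, the same livers held the extremes for most of the 9 genes. METTL3-HKD liver 1 was the highest of its group for 8 of them, Fcgr1 being the exception, and METTL3-HKD liver 3 was the lowest of its group for all 9. METTL3-Flox liver 1 was the highest of its group for 7 and the lowest for Itgax, and the lowest place was otherwise held by liver 2 for 4 genes, liver 4 for 3 and liver 3 for 1. The spread was wider among METTL3-HKD livers for Itgb2 and Cd44: the SD of Itgb2 was 7.67 FPKM in METTL3-HKD livers and 1.08 FPKM in METTL3-Flox livers, and that of Cd44 was 6.20 and 0.341 FPKM.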

How the data were processed

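RNA was sequenced from liver tissue of 4 METTL3-HKD and 4 METTL3-Flox mice, grouped by the sample titles. The authors deposited FPKM for each gene of all 8 libraries, with the gene length. Their processing notes name the builds GRCm38 and mm10, whereas the aligner, counting and strand setting are not given in the sources used here. No library size is given, so that of each liver was fitted to make FPKM × gene length × library size come out as whole reads. With it, 100% of non-zero values were whole within 0.05, and these reads gave the depth. No batch is named. The labels do not say how the mice of a group relate, so p-values measure the spread between these samples.

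The log2(FPKM + 0.1) values of 16645 genes, those averaging 0.1 FPKM or more, were compared with limma 3.58.1 (lmFit, eBayes with trend) in R 4.3.3 under Benjamini-Hochberg adjustment, at the study's thresholds (adjusted p 0.05, log2 fold change 1). Exact permutation tests enumerated 70 arrangements with scipy 1.17.1 in Python 3.11.15. The scripts were tested on simulated data. Alternatives changed the scaling, pseudocount, minimum level, variance trend, sample weights, gene types, replicate block, index or test (voom on the rebuilt reads), or left out 1 liver. Exons, overlaps and shared 50-base stretches come from GENCODE M21, and promoter windows from RefSeq.

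The genes and all lists were chosen with earlier results of these data known. Named genes are the 9, Mettl3, the pan-leukocyte genes, up to 4 genes with the smallest adjusted p per list, and the 3 genes nearest in pattern to Itgam, Itgb2, Cd44 and Fcer1g. Itga6, Has1, Vcan, Mmp14 and Fcgr2b were named after their values were seen. Some genes that the rule names are not reported here. Cemip2 was not matched, Rac2 stands in 2 lists of related genes, and Stab2 in such a list and a marker list. Single genes of the marker lists for which counts alone are given were not rerun under the alternatives. Same-numbered livers of both groups did not deviate together (correlations of −0.0838 to 0.0711), so the numbers were not used as pairs.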

Additional observations from a re-analysis of the deposited data

Results flagged for a closer look

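One value stood apart from its group. The summed level of the 8 neutrophil markers was 1630 FPKM in METTL3-HKD liver 1, against 333 to 549 FPKM in the other 3 METTL3-HKD livers. Its gap to the nearest of them was 0.834 of the range of the group, above the 95% critical value of Dixon for 4 samples. Such a gap was looked for in 58 groups of 4 livers and was found in 1, and chance gives about 1 in 20. Without METTL3-HKD liver 1, the log2 fold changes were 1.40 for Itgam (limma adjusted p = 0.0381), 1.30 for Cd44 (0.0108), 1.27 for Itgax (0.124) and 0.69 for Itgb2 (0.109).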

How the results depend on the processing

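Itgax rests on 1 to 23 reads in METTL3-Flox livers, and the 8 ratios did not pass adjustment. With 1 liver left out, an exact test cannot go below 0.0571. Against 3 members called higher and 3 upregulated, the numbers were 0 and 0 with no minimum level, where 54532 genes were tested, and 1 was upregulated with a pseudocount of 1 FPKM, which lowers the fold change of low genes (Itgam had 0.95). Without 1 liver in turn, 1 to 4 members were higher and 1 to 4 upregulated, with 1 without METTL3-HKD liver 4 or METTL3-Flox liver 3, and Itgb2 joined without METTL3-HKD liver 3. The 22 called pathway genes became 0 with no minimum, 14 without the variance trend and 8 to 27 without 1 liver (12 without METTL3-HKD liver 1 and 13 without liver 2, and 12, 8 and 10 without METTL3-Flox livers 2, 3 and 4); the causes were not tested. No member was higher per pan-leukocyte index under any alternative run by limma, where the index again enters the spread of every gene. With the replicate block, which is not given by the design, 3 members were higher (Cd44, Itgam and Itgb2, the last at 1.07 and a limma adjusted p of 0.0417), Itgax was not (1.53, limma adjusted p of 0.117), 17 pathway genes were called, and 971 genes were higher and 645 lower.

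Cd44 was called in 17 of 18 alternatives, Itgam in 14 of 18, Itgax in 6 of 17 and Itgb2 in 2 of 18. The sign turned for Itgal without METTL3-HKD liver 1 (−0.03, range −0.03 to 0.33 over omissions), Fcgr1 without METTL3-HKD liver 3 (0.07, range −0.60 to 0.07), Laptm5 without METTL3-HKD liver 1 (−0.08, range −0.08 to 0.42), the log2 ratio of Fcgr3 to Fcer1g without METTL3-HKD liver 1 (−0.01) or 4 (−0.02, range −0.02 to 0.26), and, scaled to the reads on genes, Fcgrt (0.02), Pigr (0.09), Mettl3 (0.05) and Fcgr2b (0.12; also 0.01 without METTL3-HKD liver 2, range −0.19 to 0.01). That scaling moved the median of all genes to 0.20 and the calls from 1506 higher and 1104 lower to 2309 and 374. Median-of-ratios scaling left the median at 0.0, with 1502 higher and 1104 lower, nearly as with the deposited values. With no minimum there were 60 higher and 31 lower, and without 1 liver 747 to 1659 higher and 355 to 1148 lower. The 782 upregulated genes became 317 with a pseudocount of 1 FPKM and 450 with a minimum mean of 1 FPKM. Of the 1162 values of 65 other named genes under the alternatives, 942 kept their sign and side of the threshold, 193 lost a call, 21 gained one and 6 turned.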
